A study of Mus musculus with 31 samples.

Results

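The comparison described here sets cardiac fibroblasts that went from a 3D culture to 2D and then through a further 2D phase (3D-2D-2D) against fibroblasts held in 2D for 5 days (2D-5days). Its members are the 6 RNA libraries that carry these labels, 3 a group, of 31 samples in the series. Both groups were freshly isolated cardiac fibroblasts of C57Bl/6 mice aged 8-12 weeks, and no other treatment is stated. The name 3D-2D-2D was taken to give the sequence of the cultures. The sources used here do not give the length of each phase in 3D-2D-2D or the culture material, so time in culture and the earlier 3D phase cannot be told apart. Nor do they say whether libraries came from separate cultures or mice, and p-values therefore measure the spread among these libraries, possibly a technical one. The deposited values were raw read counts per gene. They summed to 13679179, 9318778 and 12274957 in the 3D-2D-2D libraries and to 8610219, 8509987 and 9588559 in the 2D-5days libraries. Levels are given below as CPM, counts scaled to the size of each library, which do not allow for gene length, so levels are compared between groups and not between genes. Counts carried no molecular identifiers, so intervals on counts cover counting error only.

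Cardiac fibroblasts make and maintain the matrix of the heart. On a stiff flat surface they spread, build actin stress fibres and take on features of the myofibroblast, the contractile and matrix-secreting cell of the scar. In a soft or 3D setting, tension across the cell falls and actin-dependent transcription, driven by serum response factor with its MRTF partners and by YAP and TAZ with TEAD factors, falls with it. Cells moved back from 3D to 2D can show whether these programmes return and whether traces of the earlier setting stay, which is the question this pair of groups addresses.

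Library 1 of 2D-5days stood apart from the other 5 libraries. Across genes, log2 CPM differed with an SD of 0.705 from library 1 to library 2 of 2D-5days and of 0.703 from library 1 to library 3, but of 0.405 from library 2 to library 3. Between pairs of 3D-2D-2D libraries it was 0.355 to 0.396, and between 2D-5days libraries 2 or 3 and the 3D-2D-2D libraries 0.498 to 0.538. Counts of 2D-5days libraries 2 and 3 varied 1.45 times as much as sampling noise alone, against 32.2 and 33.9 times for the pairs with library 1. For the pairs of 3D-2D-2D libraries it was 2.09, 3.39 and 4.22 times. The 24 measured macrophage markers summed to 654.7, 642.9 and 651.1 CPM in the 3D-2D-2D libraries, and to 4166 CPM in 2D-5days library 1, against 983.9 and 991.7 CPM in 2D-5days libraries 2 and 3. The fibroblast marker Dcn (decorin, a small proteoglycan) was at 956, 962 and 968 CPM in 3D-2D-2D and at 292, 842 and 836 CPM in 2D-5days, lowest in library 1. All 10 fibroblast markers fixed for the check of cell type were present in every library, the lowest being Thy1 at 59.1 CPM in 2D-5days library 1. Reads of Xist and of the Y-linked gene Ddx3y were present in all 6 libraries, at unlike levels. Xist was at 209, 191 and 250 CPM in 3D-2D-2D and 446, 147 and 150 CPM in 2D-5days. Ddx3y was at 37.3, 31.2 and 35.3 CPM in 3D-2D-2D and 20.3, 24.3 and 27.5 CPM in 2D-5days. Of 5 Y-linked and X-inactivation genes, 4 were higher in each 3D-2D-2D library than in any 2D-5days library, against 13.9% of all genes tested. None of the 5 differed at an adjusted p under 0.05 in the edgeR fit of 29 libraries described below (0.944 to 0.962). The part of cell origin in the differences below was not tested. Because 2D-5days library 1 stood apart, results that rest on it are given with and without it.

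The text names the fit behind each value: all 29 RNA libraries with 1 mean per group, the 6 libraries alone, and 5 libraries without 2D-5days library 1. Fold changes are on the log2 scale with their standard error, positive where 3D-2D-2D was higher, and adjusted p-values come from edgeR's quasi-likelihood test with Benjamini-Hochberg adjustment over all genes tested. A gene is called at an adjusted p under 0.05. In the 29-library fit, 24 of 14036 genes were higher in 3D-2D-2D (0.171% of those tested) and 8 were lower (0.057%), 17 of the 32 by at least 2-fold. At an unadjusted p under 0.05 there were 1307 genes, and DESeq2 on the same libraries called 121. The 3 libraries of each group did not overlap for any of the 32, while over all genes tested 13.9% were without overlap and higher in 3D-2D-2D and 9.77% without overlap and lower. The count depended on the libraries: it was 8, 7 and 8 without 3D-2D-2D replicate 1, 2 and 3, and 21, 9 and 8 without 2D-5days replicate 1, 2 and 3. The 6-library fit called 221 of 12251 genes higher (1.8%) and 120 lower (0.98%), or 341 in all (2.78%), with 25 of the 32 among them, and the common biological coefficient of variation was 0.139 there and 0.2201 in the 29-library fit. These shares of all genes are the background for the list counts below. The 6-library and 5-library fits filtered genes anew, so some lists had fewer tested members there. Their counts and medians cover those members only. Leaving out 1 library of the 6 gave 42, 45 and 43 called genes without 3D-2D-2D replicate 1, 2 and 3, and 3896, 111 and 113 without 2D-5days replicate 1, 2 and 3. The 3896 genes called in the 5-library fit were 1989 higher (16.0% of 12398 tested) and 1907 lower (15.4%), with 2D-5days libraries 2 and 3 as the only ones of their group. Counts of those 2 varied only 1.45 times as much as sampling noise. Small p-values of the 5-library fit below may thus rest on a technical spread. Pairs of 3D-2D-2D libraries, at 2.09 to 4.22 times, enter the 6-library fit and its leave-outs too, so the spread there may also be technical in part. With those 2 summed as 1 library, the 29-library fit called 7 genes.

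**Figure D1:**
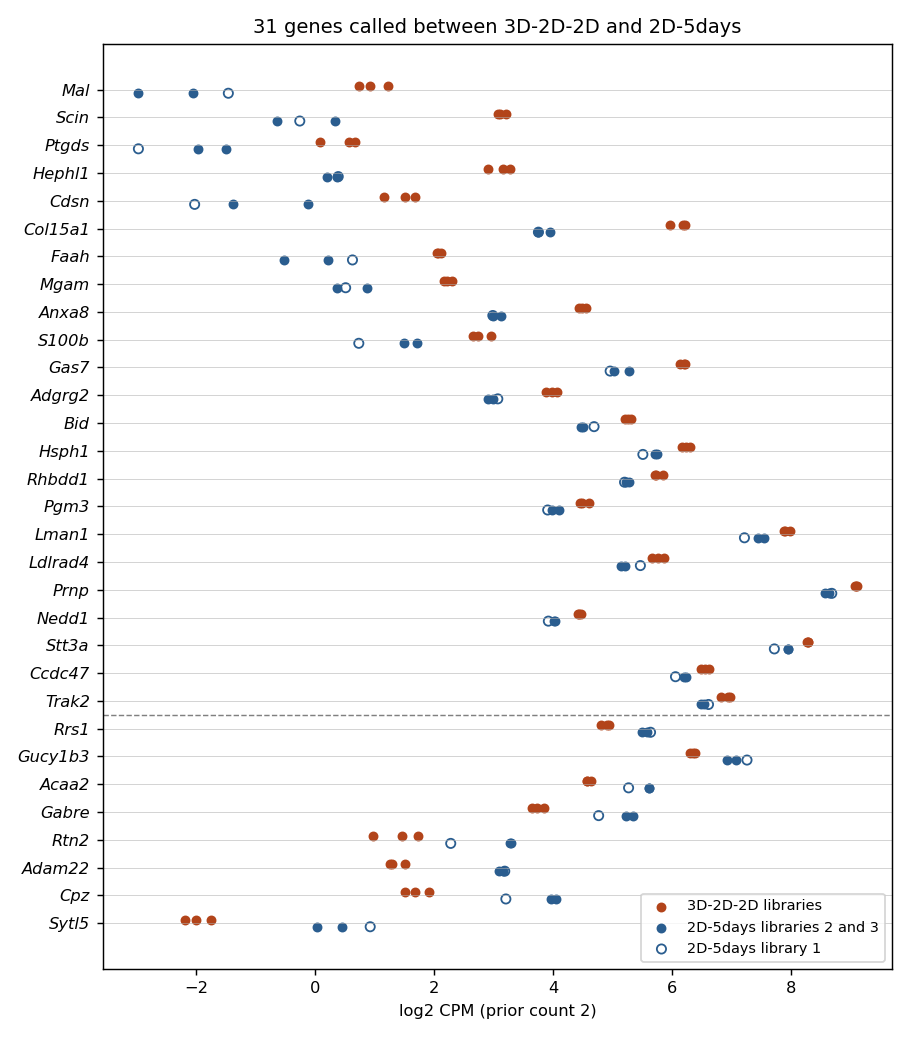
Level of 31 of the 32 genes called in the 29-library fit, in log2 CPM (prior count 2) on the horizontal axis, with 1 point per library and genes ordered by fold change. The dashed line divides the genes higher in 3D-2D-2D from the 8 lower, and the open circle is 2D-5days library 1, which lay on the same side of the 3D-2D-2D libraries as the other 2 for each of them.

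Among the genes that were higher in 3D-2D-2D were a collagen of the basement membrane zone and actin-binding proteins. Col15a1 encodes type XV collagen, which anchors basement membranes to the fibrillar matrix, and lies on mm10 at chr4:47207655-47313167. It was at 74.5, 72.5 and 62.4 CPM in the 3D-2D-2D libraries, against 13.4, 13.2 and 15.3 CPM in the 2D-5days libraries. Every 3D-2D-2D library was thus more than 4 times as high as every 2D-5days library, and the gene rose by 2.32 ± 0.29 (adjusted p = 0.00036), 2.27 ± 0.10 without 2D-5days library 1. It was called under all 15 other settings of the fit listed under the processing. Scin encodes scinderin, a calcium-dependent protein that severs actin filaments (chr12:40059769-40134228). Its level was 8.34, 9.06 and 8.46 CPM in 3D-2D-2D and 0.709, 0.514 and 1.13 CPM in 2D-5days, from 266 summed counts in 3D-2D-2D against 20 in 2D-5days, a ratio of 10.8 with an exact 95% interval of 6.82 to 17.9. Scin rose by 3.42 ± 0.49 (adjusted p = 0.00208). Gas7, a membrane-bending protein that binds actin (chr11:67453257-67688992), was at 73.2, 74.6 and 69.8 CPM in 3D-2D-2D and 30.97, 38.7 and 32.2 CPM in 2D-5days, with 1.10 ± 0.17 (adjusted p = 0.0033). Both Scin and Gas7 were called in 14 of these 15 settings, the exception being the fit without replicate 1 of either group (adjusted p = 0.0869 and 0.147).

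Anxa8, a calcium-dependent phospholipid-binding annexin, was higher by 1.47 ± 0.28 (adjusted p = 0.0224), with means of 22.3 ± 1.05 CPM in 3D-2D-2D and 8.07 ± 0.468 CPM in 2D-5days (SD, n = 3 each). Prnp, the membrane-anchored prion protein, was at 545 ± 3.48 CPM in 3D-2D-2D and 396 ± 16.4 CPM in 2D-5days, a rise of 0.46 ± 0.081 (adjusted p = 0.0148). Adgrg2, an adhesion G protein-coupled receptor, rose by 0.99 ± 0.17, and S100b, a calcium-binding protein best known from glia, by 1.45 ± 0.30 (adjusted p = 0.00995 for Adgrg2 and 0.0455 for S100b). S100b was also on the list of Schwann cell markers, whose other 3 tested members were not called. Bid, a pro-apoptotic member of the BCL2 family, rose by 0.70 ± 0.15 to 38.2 ± 1.38 CPM in 3D-2D-2D, against 23.4 ± 1.94 CPM in 2D-5days (adjusted p = 0.0471). Of these 5 genes, Anxa8 stayed called when any 1 of the 6 libraries was left out of the 6-library fit, and the others lost the call when any library other than 2D-5days library 1 was left out.

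Several of the smaller rises were in genes of the secretory pathway. Stt3a, a catalytic subunit of the oligosaccharyltransferase that attaches N-glycans in the endoplasmic reticulum, was at 307, 312 and 311 CPM in 3D-2D-2D and 210.4, 247 and 247 CPM in 2D-5days (0.40 ± 0.084, adjusted p = 0.0471). Lman1, the cargo receptor that carries glycoproteins from the endoplasmic reticulum towards the Golgi, was at 251, 236 and 238 CPM in 3D-2D-2D and 148, 186 and 174 CPM in 2D-5days (0.51 ± 0.10, adjusted p = 0.0268). Pgm3, an enzyme on the way to the sugar donor UDP-GlcNAc, rose by 0.52 ± 0.10, and Ccdc47, an endoplasmic reticulum membrane protein of protein insertion, by 0.39 ± 0.071 (adjusted p = 0.019 and 0.019). All 4 were higher in each 3D-2D-2D library than in any 2D-5days library, and in the 2D-5days group library 1 was the lowest for each. A list of 34 genes of N-glycan transfer and export from the endoplasmic reticulum was drawn up after these 4 were seen, so the 4 give its count no weight. Of its 30 other genes none was called in the 29-library fit, and 18 lay higher without overlap, against 13.9% of all genes. Their median was 0.19, and 0.093 without 2D-5days library 1, with 0.0028 over all genes tested. Hsph1, a cytosolic chaperone of the heat shock response, rose by 0.58 ± 0.11, and Rhbdd1, a rhomboid protease of the endoplasmic reticulum, by 0.54 ± 0.10 (adjusted p = 0.0235 and 0.0224). Ldlrad4, an inhibitor of TGF-beta signalling at the Smad proteins, rose by 0.48 ± 0.10, Nedd1, which recruits gamma-tubulin, by 0.45 ± 0.084, and Trak2, an adaptor for mitochondrial transport, by 0.38 ± 0.080, with adjusted p-values of 0.0471, 0.0202 and 0.0471. All 9 were among the 13 of the 32 genes that were no longer called with library totals alone as the scaling, which puts the median of all genes at -0.090 and the split at 11 higher and 17 lower.

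The 8 genes that fell included a subunit of the nitric oxide receptor. Gucy1b3 encodes the beta 1 subunit of soluble guanylate cyclase (chr3:82032004-82074711, named Gucy1b1 in RefSeq), which makes cyclic GMP when nitric oxide binds. It was at 83.9, 79.005 and 81.96 CPM in 3D-2D-2D, against 153, 135 and 122 CPM in 2D-5days, a log2 fold change of -0.74 ± 0.11 (adjusted p = 0.0033). Gucy1a3, its alpha 1 partner, was at 128, 116 and 126 CPM in 3D-2D-2D and 187, 252 and 244 CPM in 2D-5days, also without overlap. That gene was not called in the 29-library fit (-0.88 ± 0.49, adjusted p = 0.6) and was called in the 6-library fit (-0.90 ± 0.11, adjusted p = 0.00782). Acaa2, the thiolase of mitochondrial fatty acid oxidation, was at 23.6, 24.9 and 23.6 CPM in 3D-2D-2D and 38.4, 48.8 and 48.9 CPM in 2D-5days. The gene fell in 3D-2D-2D (-0.92 ± 0.11, adjusted p = 0.00036) and was called under all 15 settings. Rrs1, a factor of ribosome assembly, was at 29.7, 30.5 and 27.9 CPM in 3D-2D-2D and 49.6, 44.9 and 47.6 CPM in 2D-5days (-0.69 ± 0.10, adjusted p = 0.00147). Gabre, the epsilon subunit of the GABA-A receptor, fell to 13.2 ± 0.939 CPM in 3D-2D-2D, against 34.9 ± 7.02 CPM in 2D-5days (SD, n = 3 each, -1.40 ± 0.26, adjusted p = 0.019). The other genes that fell, besides Sytl5, were Cpz, a carboxypeptidase with a Wnt-binding domain (-2.12 ± 0.42), Adam22, a catalytically inactive member of the ADAM family (-1.83 ± 0.37), and the reticulon Rtn2 (-1.62 ± 0.30), with adjusted p-values of 0.029, 0.0317 and 0.019.

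Some called genes rested on few reads, and 15 of the 32, these, Scin and Stt3a among them, were outside the rule for named genes and were chosen after their values were seen. Sytl5, a partner of Rab27 in vesicle transport, had 2, 1 and 1 counts in 3D-2D-2D and 15, 7 and 11 in 2D-5days, a ratio of 0.0980 (exact 95% interval 0.0252 to 0.276). Mal, a membrane-raft protein of myelin and epithelia, had 56 counts in 3D-2D-2D and 3 in 2D-5days, a ratio of 15.1 (4.91 to 75.4). Ptgds, which makes prostaglandin D2, had 38 counts in 3D-2D-2D and 3 in 2D-5days, a ratio of 10.2 (3.25 to 51.9). The interval of each ratio lay on 1 side of 1, but the ends of each were more than 10-fold apart. Hephl1, a ferroxidase, had 271 counts in 3D-2D-2D against 28 in 2D-5days (7.83, interval 5.29 to 12.0), Cdsn, a desmosome protein of the epidermis, 80 against 10 (6.47, 3.34 to 14.0), Faah, which breaks down anandamide, 127 against 25 (4.11, 2.66 to 6.59), and Mgam, an alpha-glucosidase, 142 against 35 (3.28, 2.25 to 4.90). In the RefSeq annotation, 16 of the 32 called genes share their interval with another gene, 7 of them with a protein-coding gene (among them Gas7, Anxa8, Prnp and Pgm3), and the strand setting of the counting is not stated, so reads of such neighbours may be mixed.

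Contractile genes, which mark the myofibroblast state, lay mostly higher in 3D-2D-2D. None of the 29 tested members was called in the 29-library fit (5 higher and 0 lower at an unadjusted p under 0.05, 0 called by DESeq2). In the 6-library fit 5 were called higher and none lower, against 1.8% and 0.98% of all genes, and 16 of 29 lay higher without overlap and 2 lower without overlap, against 13.9% and 9.77%. The list's median was 0.20 with all libraries, 0.25 without 2D-5days library 1 and 0.11 with library totals as the scaling. Acta2, smooth muscle actin and the classical myofibroblast marker, was at 865, 869.8 and 879 CPM in 3D-2D-2D and 399, 419 and 409.9 CPM in 2D-5days. All 3D-2D-2D libraries were thus at about 2 times the level of the 2D-5days libraries, with little spread in either group: 1.07 ± 0.057 in the 6-library fit (adjusted p = 0.000493), and 1.09 ± 0.39 in the 29-library fit (adjusted p = 0.316). Tagln (transgelin, an actin-bundling protein) was at 318, 331 and 314 CPM in 3D-2D-2D and 153, 176 and 187 CPM in 2D-5days (0.88 ± 0.081 in the 6-library fit, adjusted p = 0.00254). Both stayed called when any single library was left out of the 6-library fit. Myl9, the regulatory myosin light chain, differed by 0.53 ± 0.090, Actn1, which cross-links actin at focal adhesions, by 0.41 ± 0.064, and Csrp1, a LIM protein of smooth muscle, by 0.34 ± 0.066. Their adjusted p-values in the 6-library fit were 0.0245, 0.019 and 0.0402, and each call was lost when any library other than 2D-5days library 1 was left out. In the groups with no stated time, Acta2 averaged 53.5 CPM in 3D, 2681 CPM in 3D-2D and 3066 CPM in 2D.

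Serum response factor binds the CArG box, and the promoters of the contractile list are shown for it because actin and its binding proteins are the classical targets of this factor. Of the list, 18 of 28 tested members were called higher in the 5-library fit, against 16.0% of all genes. No list had 1 in 3 of its members called in the 29-library fit, the share set for a look at promoters, so the sequences describe these genes and support no result. RefSeq promoter windows (GRCm38.p6, 250 bases before to 50 after the start) were found for 24 of the 30 listed genes. A CArG box stood in 4 of them (16.7%), in the genes Actg1, Cnn2, Myl9 and Vcl, and in 1.81% of the windows of all 27025 genes. Each stretch below reads 5′ to 3′ along the gene, in capitals where it matches the CArG box: Myl9 at chr2:156775278-156775337 on the plus strand, Cnn2 at chr10:79988519-79988578 on the plus strand, Vcl at chr14:20929148-20929205 on the plus strand and Actg1 at chr11:120348551-120348610 on the minus strand.
Myl9: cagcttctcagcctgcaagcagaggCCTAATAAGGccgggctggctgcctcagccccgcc
Cnn2: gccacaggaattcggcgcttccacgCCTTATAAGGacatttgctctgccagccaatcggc
Vcl: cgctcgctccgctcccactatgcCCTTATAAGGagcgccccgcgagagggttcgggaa
Actg1: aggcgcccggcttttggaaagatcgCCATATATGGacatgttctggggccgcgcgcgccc
The boxes begin 161, 56, 227 and 90 bases before the start used for the window in Myl9, Cnn2, Vcl and Actg1, which for Myl9 and Vcl is not the first base of the gene. Cnn2 (calponin 2) was at 482, 470.0 and 468 CPM in 3D-2D-2D and 378, 432 and 424 CPM in 2D-5days. Actg1 (gamma actin) was at 2940.1, 2817 and 2760.0 CPM in 3D-2D-2D and 2155, 2307 and 2372 CPM in 2D-5days. Neither gene overlapped between the groups, and neither was called with 2D-5days library 1 in the fit (adjusted p = 0.229 and 0.0537 in the 6-library fit). Vcl (vinculin) overlapped, with 587, 568 and 591 CPM in 3D-2D-2D and 650.3, 516 and 484 CPM in 2D-5days. No CArG box lay in the windows of Acta2, Actn1 or Csrp1, which says only that these letters are not in this window.

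Of 22 tested targets of YAP and TAZ, none was called in the 29-library fit (0 higher and 1 lower at an unadjusted p under 0.05, 0 called by DESeq2). In the 6-library fit 3 were higher and 1 lower, against 1.8% and 0.98% of all genes (list median 0.088, and -0.0089 with library totals). Ctgf, the best known target, was at 2267, 2173 and 2157 CPM in 3D-2D-2D and 2388, 1586 and 1540.2 CPM in 2D-5days. The groups overlapped because 2D-5days library 1 was the highest of all 6, and without that library the difference was 0.48 ± 0.039 (adjusted p = 1.26e-24 in the 5-library fit). This p-value rests on 2D-5days libraries 2 and 3 alone, whose spread may be technical. Cyr61, a close relative of Ctgf, was at 1718, 1709.6 and 1681 CPM in 3D-2D-2D and 1213, 1363 and 1380.5 CPM in 2D-5days (0.35 ± 0.066 in the 6-library fit, adjusted p = 0.0364). Nt5e, the ectoenzyme that makes adenosine, differed by 1.37 ± 0.27 and the growth factor gene Tgfb2 by 0.57 ± 0.10, while Asap1, a regulator of focal adhesion turnover, differed by -0.46 ± 0.082 (adjusted p = 0.0396, 0.0297 and 0.0271 in the 6-library fit). The calls of Cyr61, Nt5e, Tgfb2 and Asap1 were each lost when any library other than 2D-5days library 1 was left out. A TEAD motif, GGAATG on either strand, stood in the promoter window of 7 of 15 targets (46.7%) and in 16.6% of all genes' windows.

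Collagen genes lay higher in 3D-2D-2D almost throughout. Of 21 tested chains, 1 (Col15a1) was called higher in the 29-library fit and 8 in the 6-library fit, against 0.171% and 1.8% of all genes. None was called lower in either, and 18 lay higher without overlap, against 13.9% of all genes. The list's median was 0.49 with all libraries, 0.31 without 2D-5days library 1 in the 29-library fit and 0.40 with library totals. Col18a1, type XVIII collagen of basement membranes and the source of endostatin, was at 131, 137 and 126 CPM in 3D-2D-2D and 48.1, 54.9 and 55.7 CPM in 2D-5days (1.29 ± 0.081 in the 6-library fit, adjusted p = 0.0012; 1.31 ± 0.32 and 0.0836 in the 29-library fit). Col6a3, a chain of the microfibrillar type VI collagen, was at 108, 101 and 101 CPM in 3D-2D-2D and 50.003, 40.2 and 39.8 CPM in 2D-5days (1.23 ± 0.11, adjusted p = 0.00224 in the 6-library fit). Both were more than 2 times as high in the lowest 3D-2D-2D library as in the highest 2D-5days library, and both calls held when any single library was left out. The type IV chains of the basement membrane network, Col4a1 and Col4a2, whose genes lie head to head and overlap in the annotation, differed by 0.50 ± 0.066 and 0.48 ± 0.069 (adjusted p = 0.0102 and 0.0133 in the 6-library fit). Col5a1, Col5a3 and Col12a1, which join the type I fibril or its surface, differed by 0.71 ± 0.082, 0.65 ± 0.071 and 0.44 ± 0.065 with adjusted p-values of 0.00625, 0.00497 and 0.015 in the 6-library fit. None of these type IV, V and XII chains was called in the 29-library fit (adjusted p = 0.125 to 0.848). The calls of Col4a1, Col4a2 and Col12a1 were lost when any library other than 2D-5days library 1 was left out. That of Col5a1 was lost with each 3D-2D-2D library left out in turn, and that of Col5a3 without 3D-2D-2D replicate 1 or 2. For the major fibrillar chains the distance was smaller and hung on 2D-5days library 1: Col1a1 was at 25287, 24758 and 22798 CPM in 3D-2D-2D and 14332, 21532 and 21902 CPM in 2D-5days. Col3a1 was at 31710.0, 30834 and 29175 CPM in 3D-2D-2D and 12114, 26187 and 26000.0 CPM in 2D-5days. Neither was called in the 29-library or 6-library fit, and without 2D-5days library 1 they differed by 0.15 ± 0.041 and 0.21 ± 0.041 (adjusted p = 0.00226 and 3.94e-06 in the 5-library fit).

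Other matrix proteins differed in both directions. Of 38 tested matrix glycoproteins and proteoglycans none was called in the 29-library fit (8 higher and 3 lower at an unadjusted p under 0.05, 2 called by DESeq2). In the 6-library fit 7 were called higher and 4 lower, against 1.8% and 0.98% of all genes. Without overlap, 19 lay higher and 5 lower, against 13.9% and 9.77% of all genes, and the median was 0.36, and 0.19 without 2D-5days library 1. Postn (periostin, a matricellular protein of healing tissue) was at 1282, 1326 and 1259.8 CPM in 3D-2D-2D and 569.9, 689 and 676 CPM in 2D-5days (0.98 ± 0.080 in the 6-library fit, adjusted p = 0.00172; adjusted p = 0.171 in the 29-library fit). Tnc (tenascin C) was at 393, 379.8 and 385 CPM in 3D-2D-2D and 144, 176 and 186 CPM in 2D-5days (1.17 ± 0.094, adjusted p = 0.00172 in the 6-library fit). Each of these stood at about 2 times the 2D-5days level, as did Vcan (versican, a large proteoglycan) at 1.08 ± 0.11, while Fbn1 (fibrillin 1) differed by 0.80 ± 0.075 (adjusted p = 0.00302 and 0.00254 in the 6-library fit). Lama1, the alpha chain of laminin 111, was at 24.2, 20.8 and 24.7 CPM in 3D-2D-2D and 4.49, 4.76 and 3.16 CPM in 2D-5days (2.47 ± 0.17, adjusted p = 0.00156 in the 6-library fit; adjusted p = 0.264 in the 29-library fit). Lamc1, the gamma chain shared by most laminins, missed the threshold narrowly in the 29-library fit (0.62 ± 0.14, adjusted p = 0.0557) and was called in the 6-library fit (adjusted p = 0.00296). Smaller differences in the 6-library fit were those of Fn1 (fibronectin, 0.36 ± 0.067), Fbln2 (fibulin 2, 0.33 ± 0.067) and Matn2 (matrilin 2, 0.47 ± 0.066), with adjusted p-values of 0.0358, 0.0459 and 0.0115. In the other direction, Ogn (osteoglycin, a small leucine-rich proteoglycan) was at 65.3, 58.9 and 76.9 CPM in 3D-2D-2D and 175, 179 and 172 CPM in 2D-5days (-1.41 ± 0.10, adjusted p = 0.00156 in the 6-library fit). Thbs2 (thrombospondin 2), Ltbp2, which binds microfibrils, and Fbn2 (fibrillin 2) differed by -0.55 ± 0.10, -0.71 ± 0.11 and -1.54 ± 0.28 (adjusted p = 0.0281, 0.0201 and 0.0317 in the 6-library fit). Postn, Tnc, Vcan, Fbn1, Lama1 and Ogn stayed called when any single library was left out of the 6-library fit.

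Among the enzymes that crosslink and cut the matrix, Lox (lysyl oxidase) was at 5165, 4720.2 and 5216 CPM in 3D-2D-2D and 3304, 2726 and 2537 CPM in 2D-5days. Its relative Loxl2 was at 1353, 1305 and 1269 CPM in 3D-2D-2D and 814, 909 and 888 CPM in 2D-5days. Both lay higher without overlap (0.80 ± 0.11 and 0.57 ± 0.065 in the 6-library fit, adjusted p = 0.0118 and 0.00618), and neither was called in the 29-library fit (adjusted p = 0.57 and 0.591). Of 21 tested genes of collagen processing and crosslinking, 3 were called higher and none lower in the 6-library fit, against 1.8% and 0.98% of all genes. Without overlap 8 lay higher and 1 lower, against 13.9% and 9.77%. The median was 0.15 in the 29-library fit and -0.046 in the 5-library fit. Of 33 tested proteases and inhibitors none was called in the 29-library fit (4 higher and 0 lower at an unadjusted p under 0.05, 0 called by DESeq2). In the 6-library fit 3 were higher and 2 lower, against 1.8% and 0.98% of all genes. Timp1, an inhibitor of metalloproteinases, was at 311, 335 and 292 CPM in 3D-2D-2D and 177, 270.3 and 264 CPM in 2D-5days. Mmp2 (gelatinase A) was at 1083, 1120.2 and 1054 CPM in 3D-2D-2D and 708, 1124 and 1098 CPM in 2D-5days. Neither was called in the 6-library fit (adjusted p = 0.265 and 0.754). Mmp3 (stromelysin 1) was at 262, 265 and 248 CPM in 3D-2D-2D, against 201, 711 and 723 CPM in 2D-5days, so that library 1 lay on the other side of the 3D-2D-2D level from libraries 2 and 3. Without library 1 the Mmp3 difference was -1.49 ± 0.041 (adjusted p = 1.45e-93 in the 5-library fit), and with it -1.09 ± 0.44 (adjusted p = 0.278 in the 6-library fit). The first p-value rests on 2D-5days libraries 2 and 3 alone, whose spread may be technical.

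**Figure D2:**
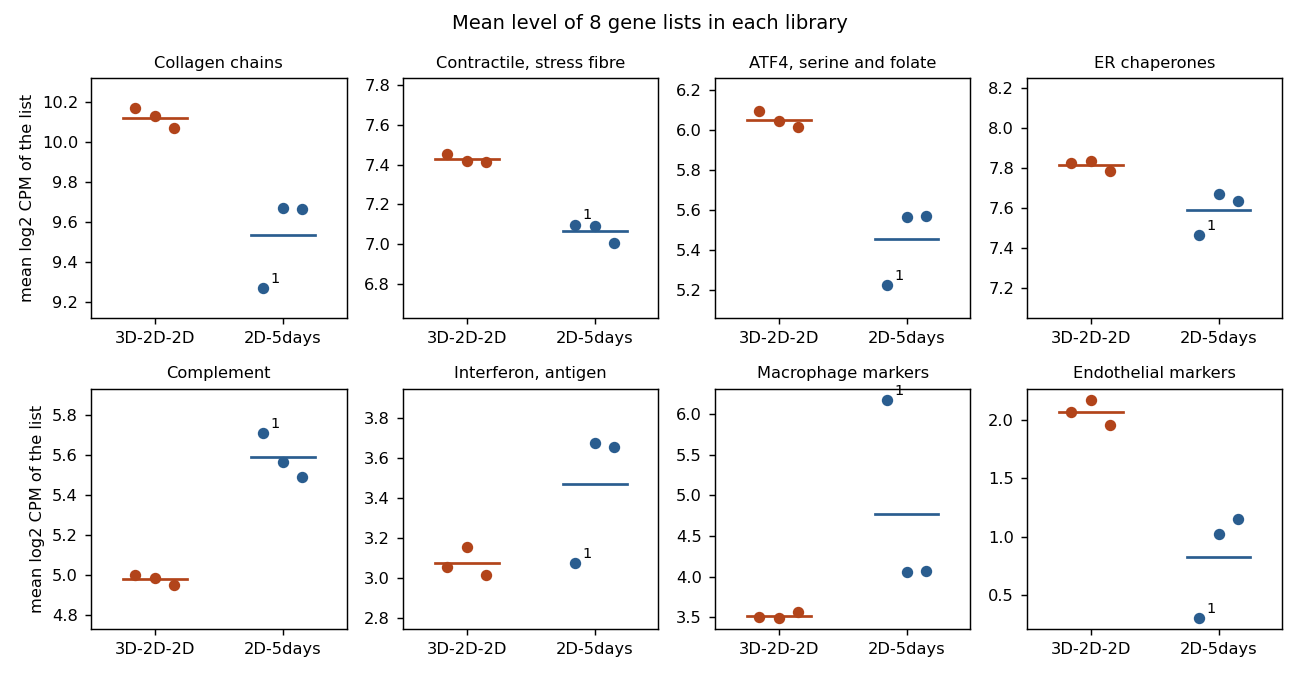
Mean log2 CPM of 8 gene lists (vertical axis, scaled per panel) in the 3 libraries of 3D-2D-2D on the left and of 2D-5days on the right, with bars for the group means and 2D-5days library 1 numbered. Collagen, contractile, ATF4 and chaperone genes lay higher in each 3D-2D-2D library, complement and macrophage genes lower, and for interferon genes library 1 of 2D-5days lay among the 3D-2D-2D libraries.

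Genes of amino acid supply and of 1-carbon metabolism formed the list with the highest median after the markers of other cells. ATF4 is the transcription factor of the amino acid and endoplasmic reticulum stress response, and its targets include the enzymes that make serine and pass its carbon to folate. None of the 26 tested members was called in the 29-library fit (9 higher and 0 lower at an unadjusted p under 0.05, 0 called by DESeq2). In the 6-library fit 9 were called higher and none lower, against 1.8% and 0.98% of all genes. Without overlap 19 lay higher and 1 lower, against 13.9% and 9.77% of all genes (median 0.54, and 0.42 without 2D-5days library 1). Slc7a5, the light chain of the main transporter of large neutral amino acids, was at 197, 175 and 187 CPM in 3D-2D-2D and 72.7, 107 and 98.7 CPM in 2D-5days (0.99 ± 0.13, adjusted p = 0.011 in the 6-library fit), and its heavy chain Slc3a2 differed by 0.41 ± 0.069 (adjusted p = 0.0225). Of the serine enzymes, Phgdh opens the pathway and Psph closes it: they differed by 0.53 ± 0.10 and 0.85 ± 0.12 (adjusted p = 0.0391 and 0.0121 in the 6-library fit). Of the mitochondrial folate enzymes, Shmt2 differed by 0.50 ± 0.10, Mthfd2 by 0.83 ± 0.11 and Aldh1l2 by 0.88 ± 0.085 (adjusted p = 0.0454, 0.0111 and 0.00269 in the 6-library fit). Aldh1l2 was at 90.9, 85.6 and 81.2 CPM in 3D-2D-2D and 42.3, 47.4 and 48.1 CPM in 2D-5days, and was the member that stayed called when any single library was left out. Vldlr, a lipoprotein receptor induced by ATF4, and Aars, the alanyl-tRNA synthetase, differed by 0.79 ± 0.11 and 0.36 ± 0.071 (adjusted p = 0.0104 and 0.0427 in the 6-library fit). Of 21 chaperones of the endoplasmic reticulum none was called in the 29-library fit (4 higher and 0 lower at an unadjusted p under 0.05, 0 called by DESeq2) or in the 6-library fit. Without overlap 15 of them lay higher and 1 lower, against 13.9% and 9.77% of all genes (median 0.24).

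Of 24 tested Wnt genes none was called in the 29-library fit (3 higher and 0 lower at an unadjusted p under 0.05, 1 called by DESeq2). In the 6-library fit 3 of 18 tested were called higher and none lower, against 1.8% and 0.98% of all genes. The Wnt median was 0.12, and -0.075 without 2D-5days library 1. Of 14 genes of the insulin-like growth factor axis none was called in the 29-library fit (3 higher and 0 lower at an unadjusted p under 0.05, 1 called by DESeq2). In the 6-library fit 1 was called higher, against 1.8% of all genes (median 0.20). Sfrp2, a secreted Wnt-binding protein of fibroblasts, was at 199, 189 and 203 CPM in 3D-2D-2D and 19.7, 55.01 and 50.2 CPM in 2D-5days. Its difference missed the threshold in the 29-library fit (2.24 ± 0.52, adjusted p = 0.0722), was called in the 6-library fit (adjusted p = 0.0222) and was 1.90 ± 0.061 without 2D-5days library 1, the lowest of its group. Wisp1, a CCN-family target of Wnt signalling, was at 328, 330.0 and 327 CPM in 3D-2D-2D and 168, 132 and 127 CPM in 2D-5days (1.18 ± 0.11, adjusted p = 0.00269 in the 6-library fit). Igfbp2, which binds insulin-like growth factors, was at 155, 169 and 152 CPM in 3D-2D-2D and 16.9, 37.7 and 39.1 CPM in 2D-5days (2.33 ± 0.28, adjusted p = 0.011 in the 6-library fit; adjusted p = 0.0879 in the 29-library fit). The lowest 3D-2D-2D library was more than 3 times as high as the highest 2D-5days library for Sfrp2 and Igfbp2. Igf1 itself overlapped, with 62.9, 61.4 and 72.96 CPM in 3D-2D-2D and 140.2, 53.98 and 57.4 CPM in 2D-5days, where library 1 was the highest. Without that library the sign turned from -0.38 ± 0.38 in the 6-library fit to 0.23 ± 0.072 in the 5-library fit (adjusted p = 0.698 and 0.00889).

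Of 17 tested Notch genes none was called in the 29-library fit (3 higher and 0 lower at an unadjusted p under 0.05, 0 called by DESeq2). In the 6-library fit 3 were called higher and none lower, against 1.8% and 0.98% of all genes. Heyl, a transcription factor induced by Notch, was at 55.3, 58.9 and 53.9 CPM in 3D-2D-2D and 27.4, 27.6 and 26.4 CPM in 2D-5days (1.02 ± 0.083, adjusted p = 0.00172 in the 6-library fit). The ligand Jag1 was at 318, 317 and 312 CPM in 3D-2D-2D and 188, 235 and 214 CPM in 2D-5days (0.55 ± 0.083, adjusted p = 0.0158). The receptor Notch4, known mainly from endothelium, was at 26.6, 26.8 and 27.2 CPM in 3D-2D-2D and 8.04, 11.3 and 13.7 CPM in 2D-5days (1.27 ± 0.17, adjusted p = 0.0113). These 3 genes were thus higher without overlap, and of them only Heyl stayed called in all 6 fits that leave out a library. They do not stand for the list, where 9 of the 17 genes had a positive difference in the 29-library fit. Without overlap 7 lay higher and 1 lower, against 13.9% and 9.77% of all genes. The list's median was 0.21 over the 17 genes of the 29-library fit and 0.084 over the 14 that the 6-library fit tested. Of 29 tested secreted growth and angiogenic factors none was called in the 29-library fit (1 higher and 3 lower at an unadjusted p under 0.05, 0 called by DESeq2). In the 6-library fit 4 were lower and 2 higher, against 0.98% and 1.8% of all genes. Without overlap 12 lay lower and 3 higher, against 9.77% and 13.9% of all genes (median -0.30). Fgf18 and Pdgfd, both growth factors, differed by -0.81 ± 0.15 and -0.80 ± 0.13, while Vegfa, the main angiogenic factor, and its relative Pgf differed by 0.52 ± 0.060 and 2.45 ± 0.32 (adjusted p = 0.0293, 0.021, 0.00631 and 0.01 in the 6-library fit). The calls of Fgf18 and Pdgfd were lost when any library other than 2D-5days library 1 was left out, and those of Vegfa and Pgf with each 3D-2D-2D library left out in turn, that of Pgf also without 2D-5days library 3. Pgf rested on 64 counts in 3D-2D-2D and 9 in 2D-5days. Among 33 cytokine, chemokine and prostaglandin genes none was called in the 29-library fit (1 higher and 0 lower at an unadjusted p under 0.05, 0 called by DESeq2), with an adjusted p of 0.718 for Il6 and 0.307 for Il33. The cytokine Il6 was at 32.4, 39.9 and 36.6 CPM in 3D-2D-2D and 14.2, 19.7 and 15.3 CPM in 2D-5days. The alarmin Il33 was at 16.3, 15.1 and 16.9 CPM in 3D-2D-2D and 3.43, 6.68 and 5.199 CPM in 2D-5days. In the 6-library fit they differed by 1.13 ± 0.14 and 1.64 ± 0.22 (adjusted p = 0.00862 and 0.00997). The chemokine Ccl2 overlapped, with 34.5, 44.1 and 31.1 CPM in 3D-2D-2D and 52.4, 32.6 and 33.004 CPM in 2D-5days.

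Complement genes lay mostly lower in 3D-2D-2D. Of 18 tested complement genes none was called in the 29-library fit (1 higher and 2 lower at an unadjusted p under 0.05, 0 called by DESeq2). In the 6-library fit 2 were called lower and none higher, against 0.98% and 1.8% of all genes. Without overlap 10 lay lower and 3 higher, against 9.77% and 13.9% of all genes (median -0.72, and -0.71 without 2D-5days library 1). C1ra, a protease of the classical pathway, differed by -0.67 ± 0.12 (adjusted p = 0.0267 in the 6-library fit). C3, the central component, was at 718, 754 and 665 CPM in 3D-2D-2D and 282, 1068 and 1066 CPM in 2D-5days. The inhibitor Serping1 was at 536, 530.2 and 537 CPM in 3D-2D-2D and 379, 944 and 924 CPM in 2D-5days. For both, library 1 of 2D-5days lay below the 3D-2D-2D libraries and libraries 2 and 3 above them, and without library 1 they differed by -0.60 ± 0.040 and -0.82 ± 0.039 (adjusted p = 5.94e-33 and 1.34e-52 in the 5-library fit). These p-values rest on 2D-5days libraries 2 and 3 alone, whose spread may be technical. C1qa, C1qb and C1qc of the complement list are also macrophage markers. Interferon response and antigen presentation genes lay lower than in 2D-5days libraries 2 and 3, but at the level of library 1, whose mean log2 CPM over the list was 3.07, against 3.01 to 3.15 in 3D-2D-2D. Of the 34 tested none was called in the 29-library fit (0 higher and 0 lower at an unadjusted p under 0.05, 0 called by DESeq2). Without overlap 10 lay lower, against 9.77% of all genes, and none higher (median -0.33, and -0.44 without 2D-5days library 1). The 6-library fit called 1 of the 29 it tested, Psmb8, a subunit of the immunoproteasome (-0.92 ± 0.18, adjusted p = 0.0402). The calls of Psmb8 and C1ra were lost when any library other than 2D-5days library 1 was left out. Bst2 (tetherin) was at 38.7, 36.9 and 38.8 CPM in 3D-2D-2D and 41.8, 84.4 and 83.9 CPM in 2D-5days. It was not called in the 6-library fit (adjusted p = 0.127).

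Markers of other cell types differed between the groups too. In bulk RNA, fewer cells of a type and less RNA per cell cannot be told apart. Of 24 tested macrophage markers, 21 lay lower in 3D-2D-2D without overlap and none higher, against 9.77% of all genes lower, and none was called in the 29-library fit (0 higher and 9 lower at an unadjusted p under 0.05, 0 called by DESeq2) or the 6-library fit. Csf1r, the receptor that defines the lineage, was at 25.02, 26.7 and 25.4 CPM in 3D-2D-2D and 159, 33.4 and 32.4 CPM in 2D-5days. Lyz2, a lysozyme with the near-identical copy Lyz1, was at 249, 249 and 253 CPM in 3D-2D-2D and 1440.0, 408 and 407 CPM in 2D-5days. For both, library 1 of 2D-5days was the highest of the 6. C1qa was at 28.7, 32.7 and 29.8 CPM in 3D-2D-2D and 220.0, 46.3 and 40.01 CPM in 2D-5days. Cd68, a lysosomal membrane protein, was at 18.4, 16.7 and 22.2 CPM in 3D-2D-2D and 129, 26.2 and 25.9 CPM in 2D-5days. Library 1 was thus at 3 to 6 times the level of libraries 2 and 3, and those 2 were still above the 3D-2D-2D libraries: the list's median was -1.75 with library 1 and -0.60 without it. No macrophage marker had 0 counts in any of the 6 libraries. The part of these cells in the complement, interferon and other differences was not tested.

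Of 19 tested endothelial markers, 12 lay higher in 3D-2D-2D without overlap and 1 lower, against 13.9% and 9.77% of all genes. The median was 1.43 over the 19, and 0.94 over the 14 tested in the 5-library fit. None of the 19 was called in the 29-library fit (7 higher and 0 lower at an unadjusted p under 0.05, 1 called by DESeq2). In the 6-library fit 2 of 11 tested were called higher, against 1.8% of all genes. Tek, a receptor of angiopoietins, was at 50.9, 48.3 and 50.9 CPM in 3D-2D-2D and 24.9, 25.7 and 23.6 CPM in 2D-5days (0.99 ± 0.083, adjusted p = 0.00186 in the 6-library fit, called whichever library was left out; adjusted p = 0.211 in the 29-library fit). Its relative Tie1 had 85 counts in 3D-2D-2D and 6 in 2D-5days, a ratio of 11.5 (exact 95% interval 5.05 to 32.1). The defining markers were low in every library: Cdh5 (VE-cadherin) was at 12.5, 14.3 and 9.73 CPM in 3D-2D-2D and 0.118, 2.57 and 3.16 CPM in 2D-5days. Pecam1 was at 4.13, 4.04 and 3.82 CPM in 3D-2D-2D and 0.118, 1.54 and 1.24 CPM in 2D-5days. Tie1, Cldn5, Sox17 and Sox18 had 0 counts in 2D-5days library 1. The 20 measured markers summed to 884.7, 877.3 and 835.9 CPM in 3D-2D-2D and to 673.0, 852.0 and 869.1 CPM in 2D-5days, of which Eng made up 76.1%. Of 12 tested markers of the epicardium and mesothelium none was called in the 29-library fit (4 higher and 0 lower at an unadjusted p under 0.05, 0 called by DESeq2). Without overlap 6 lay higher and 1 lower, against 13.9% and 9.77% of all genes. The 15 measured markers summed to 757.0, 711.8 and 752.6 CPM in 3D-2D-2D and to 554.5, 732.2 and 723.4 CPM in 2D-5days, so the groups overlapped. Aldh1a1 made up 74.0% of this sum, which thus says little about the other markers. Upk3b and Upk1b are uroplakins of the mesothelial surface. Upk3b was at 71.1, 65.2 and 68.7 CPM in 3D-2D-2D and 28.3, 18.3 and 21.02 CPM in 2D-5days. Upk1b was at 5.05, 4.899 and 4.64 CPM in 3D-2D-2D and 0.946, 0.8997 and 0.678 CPM in 2D-5days. Their differences were 1.58 ± 0.16 and 2.496 ± 0.25 (adjusted p = 0.00296 and 0.00287 in the 6-library fit, 0.178 and 0.481 in the 29-library fit). No lymphocyte or erythroid marker passed the filter, and 2 of 9 cardiomyocyte markers lay higher and 2 lower without overlap, against 13.9% and 9.77% of all genes.

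Genes of fibroblast identity and of division differed little or in mixed directions. Cd34 and Scara5, markers of resting adventitial fibroblasts, were higher: Cd34 was at 113, 122 and 115 CPM in 3D-2D-2D and 49.4, 59.8 and 57.4 CPM in 2D-5days. Scara5 was at 37.7, 30.01 and 40.6 CPM in 3D-2D-2D and 19.6, 22.5 and 17.4 CPM in 2D-5days. The differences were called in the 6-library fit (1.05 ± 0.088 and 0.85 ± 0.15, adjusted p = 0.00186 and 0.0238), and that of Scara5 was lost when any library other than 2D-5days library 1 was left out. Cd34 is also made by endothelial cells, whose markers lay higher too. Pdgfra, the receptor that marks heart fibroblasts, was lower, at 349, 307 and 324 CPM in 3D-2D-2D and 421, 459 and 444 CPM in 2D-5days (-0.45 ± 0.069, adjusted p = 0.0163 in the 6-library fit, lost in the same 5 leave-outs). The marker Pi16 was at 8.26, 7.35 and 8.64 CPM in 3D-2D-2D and 0.473, 2.57 and 2.83 CPM in 2D-5days, a difference that missed the threshold (2.03 ± 0.44, adjusted p = 0.0587 in the 6-library fit). Thy1 was at 77.6, 78.4 and 76.05 CPM in 3D-2D-2D and 59.1, 122 and 116 CPM in 2D-5days. The lineage factor Tcf21 was at 209, 201 and 199 CPM in 3D-2D-2D and 139, 259 and 256 CPM in 2D-5days. In both, library 1 of 2D-5days lay below the 3D-2D-2D libraries and libraries 2 and 3 above them. Mki67, made in dividing cells, was at 33.9, 31.8 and 31.9 CPM in 3D-2D-2D and 46.3, 28.5 and 33.004 CPM in 2D-5days, and none of 35 mitosis genes was called in the 29-library fit (0 higher and 0 lower at an unadjusted p under 0.05, 0 called by DESeq2) or the 6-library fit. Only 1 of 35 S-phase genes was called, higher, in the 6-library fit, against 1.8% of all genes.

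**Figure D3:**
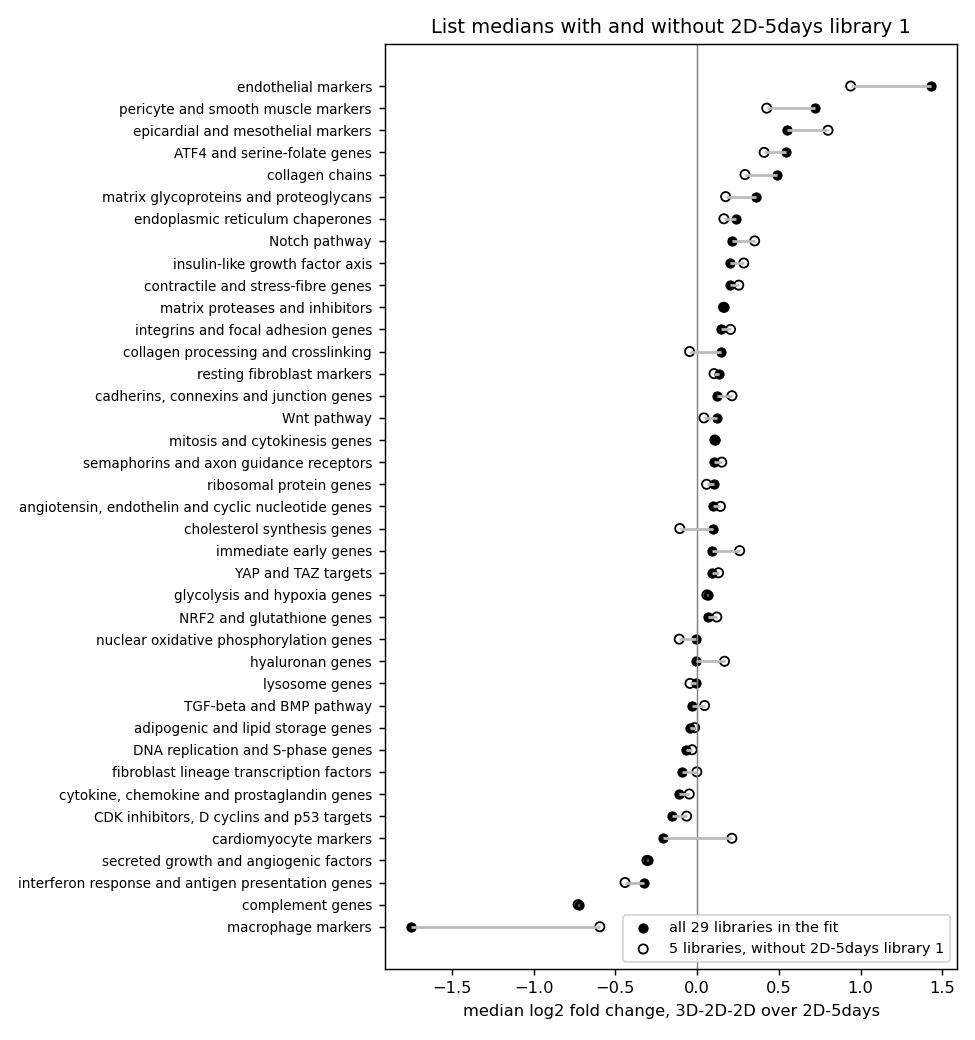
Median log2 fold change of 3D-2D-2D over 2D-5days (horizontal axis) for each list with at least 9 tested genes, from all 29 libraries (filled) and from 5 libraries without 2D-5days library 1 (open). The macrophage median was -1.75 with library 1 and -0.60 without it, the endothelial one 1.43 and 0.94, and the complement one -0.72 and -0.73. Open points cover only the members tested in the 5-library fit, for example 14 of the 19 endothelial markers.

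A trace of the 3D phase would show as genes that differ between 3D and 2D and keep the same direction here. The 3D and 2D groups with no stated time share no library with the 6 described. Macrophage markers summed to 12450, 8685 and 309.9 CPM in 3D libraries 1, 2 and 3, against 1788 to 2106 CPM in 2D. These markers lay lower in 3D-2D-2D than in 2D-5days, and their part in the shares below was not tested. Of the 3746 genes called higher in 3D than in 2D (26.7% of those tested), 47.5% lay higher in 3D-2D-2D than in 2D-5days, with a median of -0.014. Of the 3830 called lower in 3D (27.3%), 41.4% lay lower, with a median of 0.042, while 50.8% of all genes lay higher. With library totals as the scaling these shares were 33.3% and 58.6%, so the share of the second set lay on the other side of an even split. Among the genes called in 3D-2D over 2D, 52.8% of the 961 higher ones (6.85% of those tested) and 44.7% of the 1058 lower ones (7.54%) kept their direction. The number of genes called there, 2019 in all, hung on single libraries: it was 817, 1147 and 2947 without 2D replicate 1, 2 and 3, and 797 and 171 without 3D-2D replicate 1 and 2.

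**Figure D4:**
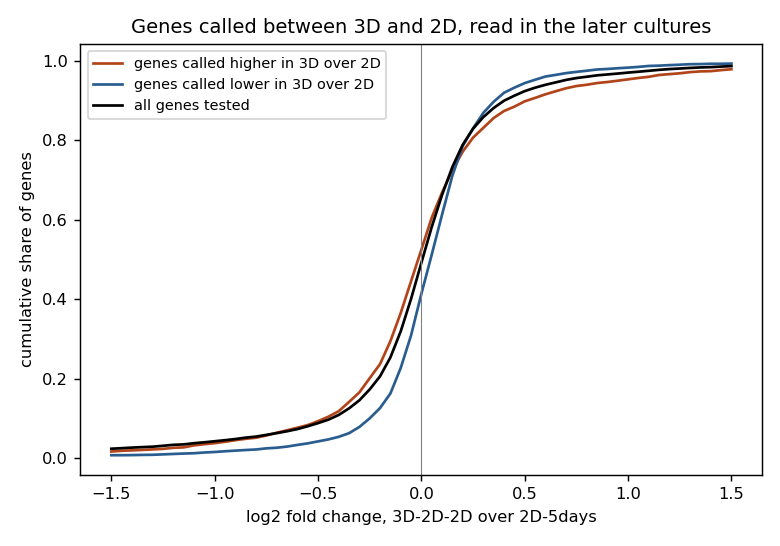
Cumulative share of genes (vertical axis) by log2 fold change of 3D-2D-2D over 2D-5days (horizontal axis), for genes called higher in 3D than in 2D, genes called lower, and all genes tested. The curves of the 3746 and 3830 genes lie close to that of all genes, with medians of -0.014 and 0.042.

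Single called genes had the direction of 3D over 2D, and others had the opposite one. Of the 24 genes called higher in 3D-2D-2D, 9 were also called higher in 3D over 2D, 11 were called lower there and 4 were not called. Over all genes tested, 26.7% were called higher in 3D over 2D and 27.3% lower. Gas7 averaged 367 CPM in 3D, 32.8 CPM in 3D-2D and 44.4 CPM in 2D (3.05 ± 0.17 in 3D over 2D, adjusted p = 8.57e-12). Scin averaged 49.4 CPM in 3D, 14.8 CPM in 3D-2D and 7.65 CPM in 2D (2.68 ± 0.34, adjusted p = 1.17e-06). Col15a1 averaged 335 CPM in 3D, 128 CPM in 3D-2D and 95.7 CPM in 2D (1.80 ± 0.27, adjusted p = 8.32e-06). For Scin and Col15a1 the 3D-2D-2D mean lay nearer to that of 2D than to that of 3D, and 2D-5days was the lowest of these groups. The others of the 9 were Anxa8, Bid, Hephl1, Mgam, Ptgds and S100b, with 3D over 2D differences of 0.90 ± 0.26, 0.35 ± 0.15, 2.84 ± 0.58, 0.80 ± 0.34, 5.73 ± 0.49 and 2.32 ± 0.30. In 3D-2D over 2D, Gas7, S100b and Mgam had negative differences (-0.44, -0.82 and -0.29). Scin, Col15a1, Anxa8, Bid, Hephl1 and Ptgds had positive ones there, and of the 9 only Anxa8 was called (0.89 ± 0.29, adjusted p = 0.0417). The secretory genes went the other way: Lman1 differed by -0.61 ± 0.10 and Stt3a by -0.43 ± 0.084 in 3D over 2D (adjusted p = 2.65e-05 and 0.000209). Of the 8 genes called lower in 3D-2D-2D, Gucy1b3, Rrs1 and Sytl5 were also called lower in 3D over 2D, and Acaa2 and Cpz were called higher there. Acaa2 averaged 51.1 CPM in 3D, 21.4 CPM in 3D-2D and 23.2 CPM in 2D. Gucy1b3 averaged 42.2 CPM in 3D, 52.1 CPM in 3D-2D and 99.98 CPM in 2D.

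**Figure D5:**
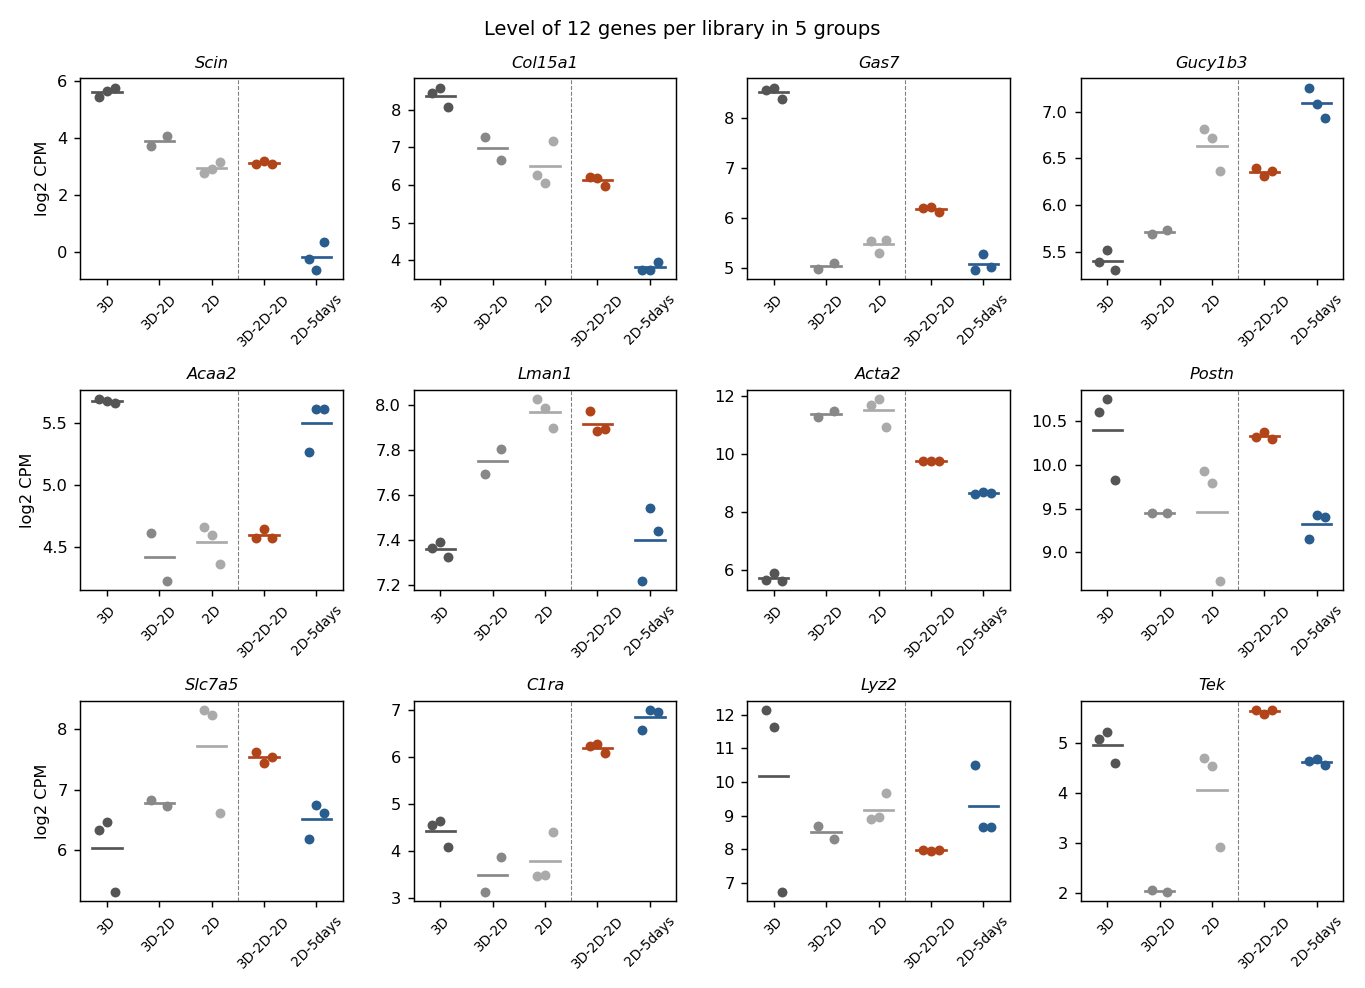
Level of 12 genes in log2 CPM (vertical axis, scaled per panel) in each library of 5 groups, with bars for the group means and a dashed line between groups of no stated time and the 2 groups compared. Scin, Col15a1 and Gas7 were highest in 3D, Acta2 was lowest in 3D, and in Lyz2 the first library of 2D-5days stood above the other 2.

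The same question could be put at the earlier 2D stage, where 3D-2D was set against 2D with no shared library. Gucy1b3 was lower there too (-0.94 ± 0.13, adjusted p = 0.000164), and the difference between the stages was not called (0.20, adjusted p = 0.546). The difference between the 2 differences was called for 863 of 14036 genes (6.15%), 575 of them with the later one more positive (4.1%) and 288 with it more negative (2.05%). It was called for 22 of the 32 genes called here. These 32 were selected by the later difference, which is part of this contrast, so their count carries no weight. Library 3 of 2D stood apart from the other 2: log2 CPM differed with an SD of 0.760 and 0.750 from it to libraries 1 and 2, and of 0.343 between those. It was nearer to the 3D-2D libraries, with an SD of 0.573 and 0.656, than to its own group. From 2D libraries 1 and 2 to the 3D-2D libraries the SD was 0.795 to 0.890. The count of 863 was 335, 449 and 1833 without 2D replicate 1, 2 and 3, and 368 and 109 without 3D-2D replicate 1 and 2. Several matrix and signalling genes above had a negative difference at the earlier stage: Fbn1 differed by -1.12 ± 0.22 (adjusted p = 0.00231), Vcan by -1.17 ± 0.28 (adjusted p = 0.00855), Lamc1 by -0.95 ± 0.16 (adjusted p = 0.000633), Wisp1 by -1.46 ± 0.44 (adjusted p = 0.0291) and Heyl by -4.40 ± 0.74 (adjusted p = 0.000811). None of these 5 was called between 3D-2D-2D and 2D-5days in the same 29-library fit (adjusted p = 0.0722, 0.0667, 0.0557, 0.235 and 0.545 in that order). Wisp1 overlapped at the earlier stage, with 126 and 166 CPM in 3D-2D and 574, 544 and 87.9 CPM in 2D. Heyl had 1.17 and 1.15 CPM in 3D-2D and 38.8, 33.3 and 2.96 CPM in 2D. The Y-linked gene Ddx3y also differed between the groups of the 2 stages: it was at 0 CPM in both 3D-2D libraries and at 31.2 to 37.3 CPM in 3D-2D-2D, with 0.0789 to 51.6 CPM in 2D and 20.3 to 27.5 CPM in 2D-5days, and the part of cell origin in the difference between stages was not tested.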

How the data were processed

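RNA sequencing of mouse cardiac fibroblasts was analysed in 29 libraries of 10 groups. The authors deposited raw read counts per gene symbol, and the submitters' processing notes list the tools Bowtie, TopHat, HTSeq and MACS2 without versions, and the build mm10. No annotation or strand setting is stated. The table held 24421 gene rows, 5 summary rows, which were left out, and 27 symbols turned into dates. Counts were fitted with edgeR 4.0.16 (limma 3.58.1, R 4.3.3): filterByExpr kept 14036 genes, libraries were scaled by TMM, and quasi-likelihood tests with robust dispersions were adjusted by Benjamini-Hochberg over all genes. The same steps were run on the 6 libraries alone and on 5 without 2D-5days library 1. Ratios of low counts have exact conditional intervals at 95%. DESeq2 1.42.0, RLE factors, library totals, other filters, the 6 libraries with and without a replicate block, each library left out, replicate 1 of both groups left out and 2D-5days libraries 2 and 3 summed were tried (15 settings), and the fits were tested on simulated data. The members, gene lists and rule for named genes were chosen with earlier results of these data known. The rule took the 12 largest called rises and falls with mean log2 CPM of at least 3 and no overlap, up to 4 called or else the 2 most abundant members of each list, and a panel of 19 fibroblast genes. The text gives part of these, and genes outside the rule, including most members named from the 6-library fit, were chosen after their values were seen. Promoter sequences and positions are from RefSeq (GRCm38.p6). Some genes are not reported here, and the 2 ATAC-seq samples were not used here.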

Additional observations from a re-analysis of the deposited data

Results flagged for a closer look

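For 44 of the 118 genes examined one by one, the difference between cells with and without an earlier 3D phase was not the same at the 2 stages: the contrast (3D-2D-2D minus 2D-5days) minus (3D-2D minus 2D) was called in the 29-library edgeR fit. It is given below in log2 units, and Ddx3y differed between these groups as given above, a point whose part was not tested.

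Of the genes called between 3D-2D-2D and 2D-5days, the contrast was 2.48 for Scin, 1.91 for Col15a1, 1.53 for Gas7, 2.27 for S100b, 0.91 for Adgrg2, 3.62 for Mal, 3.08 for Cdsn, 2.76 for Faah and 2.01 for Mgam. It was 0.68 for Stt3a, 0.74 for Lman1, 0.55 for Ccdc47, 0.68 for Hsph1, 0.61 for Rhbdd1, 0.96 for Ldlrad4, 0.49 for Nedd1 and 0.46 for Trak2. In the negative direction it was -3.75 for Sytl5, -1.59 for Rtn2, -1.06 for Rrs1 and -0.81 for Acaa2.

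Of the matrix genes, the contrast was 6.08 for Lama1, 1.57 for Lamc1, 2.27 for Vcan, 1.94 for Fbn1, 1.68 for Col5a1 and 1.44 for Matn2. Of the ATF4 genes it was 3.06 for Aldh1l2, 2.13 for Mthfd2, 2.13 for Slc7a5, 1.61 for Psph, 1.57 for Phgdh, 1.19 for Aars and 1.11 for Shmt2. Of the signalling genes it was 6.20 for Sfrp2, 2.66 for Wisp1, 5.44 for Heyl, 2.47 for Jag1, 1.86 for Tgfb2, 3.10 for Gucy1a3, 4.15 for Il33 and -2.16 for Fgf18. It was 4.29 for Scara5 and 3.24 for Tek. In 39 of the 44 genes the later difference was the more positive. Many of the genes examined were chosen after their later difference was seen, and that difference is part of this contrast. The counts of 44 and 39 therefore carry no weight. Over all genes tested, the contrast was called for 6.15%, with the later difference more positive for 4.1% and more negative for 2.05%. Library 3 of 2D stood apart, and for Slc7a5 the levels were 114 and 107 CPM in 3D-2D and 321, 302 and 97.6 CPM in 2D, for Mthfd2 35.8 and 30.8 CPM in 3D-2D and 103, 106 and 33.1 CPM in 2D, and for Aldh1l2 26.3 and 17.7 CPM in 3D-2D and 149, 129 and 17.7 CPM in 2D. Of the 44 genes, 44 remained called without 2D replicate 3, 28 and 32 without 2D replicate 1 and 2, and 21 and 17 without 3D-2D replicate 1 and 2. The sign was the same for all 44 in each of these fits. Replicate 3 was the 2D library nearest to 3D-2D, so the fit without it is no test of how stable the calls are.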

How the results depend on the processing

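The count of 32 called genes was 30 with RLE factors, 28 with library totals, 24 with no filter and 31 with a filter of 1 CPM in 3 libraries. It was 121 with DESeq2, 341 in the 6-library fit, 156 there with the replicate block, 3 without replicate 1 of both groups and 7 with 2D-5days libraries 2 and 3 summed. Leaving out 1 library gave 7 to 21. Settings chosen after seeing the data were the 6-library fit with library totals (395), with DESeq2 (637), and without 1 library (42 to 45 without a 3D-2D-2D library, and 3896, 111 and 113 without 2D-5days replicate 1, 2 and 3). The count of 863 for the contrast of stages was 564 with 2D-5days libraries 2 and 3 summed and 109 to 1833 without 1 library. For 3D-2D over 2D, 2019 genes became 171 to 2947, where leaving out libraries of 2D or 3D-2D was chosen after seeing the data. Same-numbered libraries of the 2 groups correlated at 0.0239, 0.0594 and -0.0705 in their deviations from the group means, and not every library correlated best with its own number, so the numbers were not taken as pairs.

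DESeq2 on 29 libraries kept all 32 genes called, the 6-library fit 25 of the 30 it tested, and the 29-library fit without 2D-5days replicate 1 kept 15. Of 62 genes named here and called in the 6-library fit but not the 29-library fit, 17 stayed called whichever library was left out, 38 with the block, 53 with library totals and 62 with DESeq2. Signs of log2 fold changes turned for 7 genes, whose groups overlap. Leaving out 1 library of the 29 gave -0.0099 to 0.22 for Vcl, -0.033 to 0.26 for Mmp2, -0.27 to 0.15 for Ccl2, -0.59 to 0.24 for Igf1, -0.29 to 0.082 for Mki67, -0.34 to 0.027 for Tcf21 and -0.58 to 0.068 for C3. Without replicate 1 of both groups, and then in the 5-library fit, the values were -0.046 and -0.047 for Mmp2, 0.18 and 0.12 for Ccl2, 0.26 and 0.23 for Igf1, and 0.037 and 0.067 for Mki67, where that of Igf1 in the 5-library fit was called. Without 2D-5days replicate 2 or 3 the signs of Tcf21 (0.027 and 0.015) and C3 (0.068 and 0.067) turned, as they did in the 6-library fit (Tcf21 0.012 and 0.0050, C3 0.059 and 0.063) and with both summed (Tcf21 0.013, C3 0.059). C3 was at 0.011 with the block. Vcl was at -0.019 with library totals, at -0.019 with them in the 6-library fit, and at -0.0099 and -0.029 without 2D-5days replicate 3 in the 29-library and 6-library fits. The cause was not tested. List medians moved by more than the spread between libraries for 14 of 43 lists with library totals and for 9 in the 5-library fit. Counting error limits the low genes, whose intervals are given above.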
